A study of Mus musculus with 2 samples.

Results

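The core circadian clock genes were followed in X63/0 (X63-Ag8.653) cells, a mouse plasmacytoma line of the B cell lineage, before and after exposure to 30 mM cycloleucine for 3 h. They are 10 genes of 43346 in the deposited table, found by their symbols: the activators Clock and Arntl, the repressors Per1, Per2, Per3, Cry1, Cry2, Nr1d1 and Nr1d2, and the output factor Dbp. Cycloleucine is an amino acid analogue that blocks the synthesis of S-adenosylmethionine, the methyl donor of the cell. Both cultures were of this established line. The series describes the experiment as done in triplicate, and 1 library of total RNA depleted of ribosomal RNA per group was analysed here. Differences were therefore not set against a spread between replicates, and no test was made. According to the series' design text the control was taken before treatment, so 3 h of culture and any effect of the added medium cannot be told apart from that of cycloleucine.

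The mammalian clock is a feedback loop of transcription. CLOCK and BMAL1, the product of Arntl, bind as a heterodimer to E-boxes in DNA and activate the Per, Cry, Nr1d1, Nr1d2 and Dbp genes. PER and CRY proteins then inhibit that heterodimer, while the nuclear receptors REV-ERB alpha and beta (Nr1d1 and Nr1d2) repress Arntl through ROR response elements, known as ROREs, at which ROR receptors activate it. DBP acts at D-boxes, where NFIL3 is its repressor. Inhibitors of methylation are known to lengthen the circadian period of cultured cells. Clocks of single cells in an unsynchronised culture run out of phase, so total RNA of such a culture averages over phases. The sources used here give neither a synchronisation step nor the hour of harvest.

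The DNA upstream of 4 members is shown. Arntl, Dbp and Nr1d2 had the highest folds of exon reads per library total among the members with over 10 such reads in each library, and Cry1, of the repressor arm, held an E-box. The sequences are from RefSeq (GRCm38.p6, the assembly also called mm10), 5' to 3' on the gene's strand. They are limited to bases outside the gene's span in the deposited table. Capitals mark a match to any of the 4 motifs searched on both strands: the E-box CACGTG, the D-box TTATGTAA, the RORE, written as AGGTCA preceded by AANT, and the cyclic AMP response element TGACGTCA.
Arntl, chr7:113207215-113207464, plus strand: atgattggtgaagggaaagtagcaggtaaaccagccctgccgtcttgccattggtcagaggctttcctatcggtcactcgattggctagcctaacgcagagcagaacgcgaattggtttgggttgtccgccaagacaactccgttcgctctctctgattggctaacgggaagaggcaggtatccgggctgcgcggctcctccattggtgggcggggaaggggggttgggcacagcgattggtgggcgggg
Nr1d2, chr14:18239128-18239356, minus strand: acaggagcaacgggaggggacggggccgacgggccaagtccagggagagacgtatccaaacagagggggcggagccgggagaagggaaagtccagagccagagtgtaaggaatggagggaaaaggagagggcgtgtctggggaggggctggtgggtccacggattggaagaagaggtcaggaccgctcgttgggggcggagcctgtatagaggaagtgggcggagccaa
Dbp, chr7:45704997-45705087, plus strand: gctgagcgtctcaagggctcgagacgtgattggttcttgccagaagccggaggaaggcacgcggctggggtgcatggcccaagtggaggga
Cry1, chr10:85185055-85185304, minus strand: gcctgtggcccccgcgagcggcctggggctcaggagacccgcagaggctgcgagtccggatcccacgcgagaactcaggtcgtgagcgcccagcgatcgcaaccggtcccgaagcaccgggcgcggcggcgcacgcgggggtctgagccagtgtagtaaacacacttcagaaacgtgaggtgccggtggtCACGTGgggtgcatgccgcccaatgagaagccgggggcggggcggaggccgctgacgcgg

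RefSeq windows from 250 bases before to 50 bases after a start site were found for 9 of the 10 members, 13 windows in all, and 4 members held a match. The matches are printed with up to 9 bases on either side.
Arntl RORE, chr7:113207538-113207547: gaaggcagaAAGTAGGTCAgggacggag
Cry1 E-box, chr10:85185109-85185114: gccggtggtCACGTGgggtgcatg
Per1 E-box, chr11:69098783-69098788: acccaagtcCACGTGcagggatgt
Per3 first D-box, chr4:151044863-151044870: acccgcgcgTTATGTAAggtactcgg
Per3 second D-box, chr4:151044816-151044823: cgcccgcggTTATGTAAcccccgccg
The Arntl match lies 27 bases after the second of its 2 start sites, within the span of the gene in the deposited table. The Per1 match also lies within the span of its gene there. Of 32851 such windows over all genes, 0.219% held the RORE, 7.15% the E-box, 0.938% the D-box and 1.79% the cyclic AMP response element. These matches describe the letters in these windows, and no binding was measured. The windows of Clock, Cry2, Nr1d1, Nr1d2 and Dbp held none of these letters, which says nothing of sites elsewhere in those genes.

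Reads assigned to genes numbered 27127865 without treatment and 31951946 with cycloleucine. Levels are in RPKM, reads per kilobase of exon scaled to the gene reads of the library, with 95% Poisson intervals of the count. Folds are the cycloleucine over the untreated library per library total, with 95% exact binomial (Clopper-Pearson) intervals. That total is all gene reads for exon, junction and intron folds. For folds of unique exon and unique intron reads it is the unique gene reads. Scaling by unique gene reads raises a fold by 0.034 in log2 over scaling by all gene reads. All intervals cover counting error only. Mat2a, the gene of an S-adenosylmethionine synthetase whose RNA is known to be higher when that product is low, was 2.56-fold higher (2.48 to 2.64). All 7 plasma cell markers listed, Sdc1 and Xbp1 among them, were measured. Their summed level was 704.7 RPKM in the untreated and 713 RPKM in the cycloleucine library. Of 5 B cell markers Ms4a1 and Cd79b were measured, while Pax5 had 0 and 2 reads. The summed levels of T and natural killer cell, myeloid and fibroblast markers were 0.418, 1.45 and 0.266 RPKM in the untreated library and 0.554, 1.43 and 0.260 RPKM in the cycloleucine library. Of the 5 myeloid markers only Cd68 was measured, with 40 and 46 reads. Nkg7 and Adgre1 were at 0 reads in both.

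Arntl was the core clock gene that differed most among those measured well. It was 1.91-fold higher in the cycloleucine library, while the folds of its partner Clock and of the repressors Per1, Cry1, Nr1d1 and Nr1d2 stayed within the 1.5-fold rule described below. Those folds were 1.03, 0.916, 0.865, 0.811 and 1.24. The output gene Dbp was at 1.80-fold but below the filter on level, Cry2 differed between kinds of read, and Per2 and Per3 were close to the floor. A gene counted as measured when its RPKM was at least 1 in either library and it had at least 50 exon reads over both. This kept 7 of the 10 clock genes and 9613 features of the table. With 1 library per group a size rule of at least 1.5-fold on log2(RPKM + 0.1) was used, a scale that understates the change of low genes. By this rule 1 of the 7 was higher, where 3.03% of all kept features were, and 0 of 7 were lower, where 2.47% were. Among annotated features with at least 200 exon reads, which include the same 7 genes, the shares were 1.48% higher and 1.05% lower. The 7 had a median log2 fold change of 0.02, with 4 above and 3 below 0, against a median of 0.0035 and 50.9% above 0 over all kept features. As a group the measured members thus sat at the centre of the table, with Arntl apart from them. In bulk RNA, fewer cells with a transcript and less of it per cell cannot be told apart.

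**Figure D1:**
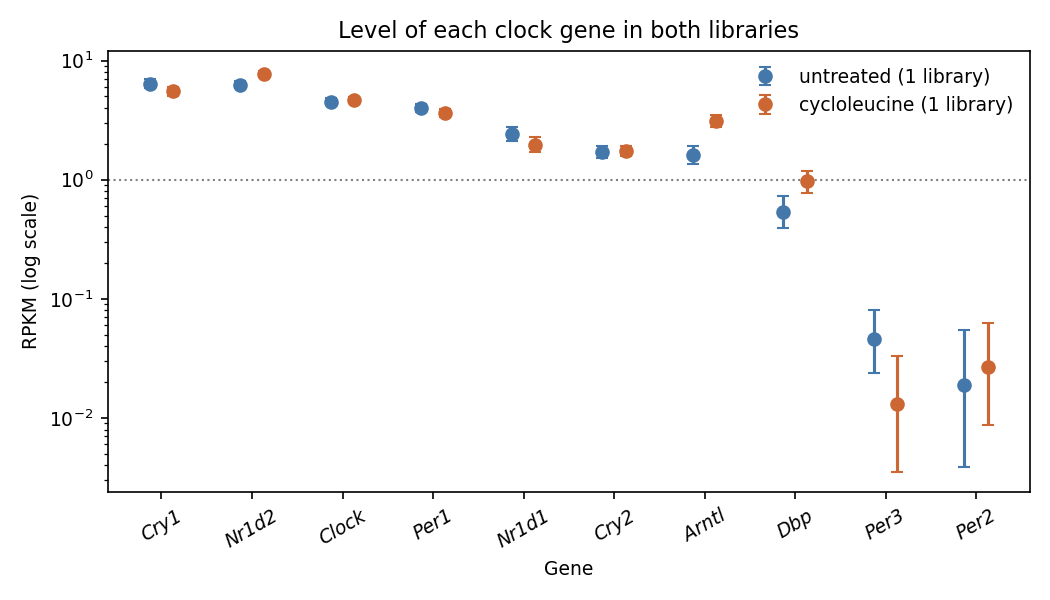
RPKM of each of the 10 clock genes on a log axis in the untreated and the cycloleucine library, 1 library each, with bars for 95% Poisson intervals of the count and a dotted line at 1 RPKM. Cry1, Nr1d2, Clock and Per1 lie between 3.66 and 7.75 RPKM in both libraries, Arntl moves from 1.62 to 3.10, and Per2 and Per3 stay under 0.05.

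In the untreated library the order of levels per kilobase was Cry1, Nr1d2, Clock, Per1, Nr1d1, Cry2, Arntl, Dbp and Per2, leaving out Per3, which was counted from junction reads alone. The intervals of Cry1 and Nr1d2, of Clock and Per1, and of Cry2 and Arntl overlapped, so these neighbours could not be ordered at this depth. With cycloleucine Nr1d2 was highest, followed by Cry1, Clock, Per1, Arntl, Nr1d1, Cry2, Dbp and Per2. Arntl had moved from the seventh to the fifth place, beside Per1, with which its interval overlapped. The intervals of Nr1d1 and Cry2 overlapped as well in this library. All kept features had a median RPKM of 6.05 untreated and 6.11 with cycloleucine, so most clock genes were at or below the middle of the measured range.

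Arntl, which lies on chromosome 7 from 113207465 to 113314122 in mm10, encodes BMAL1, the DNA-binding partner of CLOCK. Exon reads numbered 128 untreated and 288 with cycloleucine, an RPKM of 1.62 (1.36 to 1.93) against 3.10 (2.76 to 3.48). The cycloleucine library was the higher of both, and the counting intervals did not overlap. The fold was 1.91 (1.55 to 2.37) and the log2 fold change 0.89, the 103rd highest of 9613 kept features. Nearly all of these reads were uniquely placed, 128 of 128 and 287 of 288, and unique reads gave a fold of 1.95 (1.58 to 2.42). Junction reads, which span 2 exons and come from spliced RNA, were 49 and 102, a fold of 1.77 (1.25 to 2.54). All exon reads, unique exon reads and junction reads, which overlap as sets, thus gave a higher value with cycloleucine.

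Intron reads of Arntl did not follow its exon reads. They numbered 163 untreated and 186 with cycloleucine, a fold of 0.969 with an interval from 0.781 to 1.20, and uniquely placed intron reads gave 1.03 (0.815 to 1.32). Introns therefore made up 56.0% of its gene reads without treatment and 39.2% with cycloleucine. The log2 change of the intron to exon ratio was -0.98, with an exact conditional interval from -1.42 to -0.54. The ratio was compared across 6803 genes, each with a summed 100 or more intron reads and 200 or more exon reads. The middle 95% of such changes lay between -0.66 and 0.72, and 0.441% of genes were lower than Arntl. The higher exon level of Arntl was thus not matched in its introns, and which step of its RNA metabolism differed was not tested.

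Clock, the other activator, lies on chromosome 5 from 76212177 to 76304548 and had 916 and 1110 exon reads. The level was 4.52 RPKM untreated and 4.65 RPKM with cycloleucine, a fold of 1.03 (0.942 to 1.12). Junction reads gave 1.06 (0.856 to 1.31), and both intervals included 1. The ratio of the Arntl to the Clock level per kilobase was 0.360 (0.297 to 0.433) without treatment and 0.668 (0.585 to 0.761) with cycloleucine. Clock was intron-rich, with 70.3% of its gene reads in introns untreated and 68.3% with cycloleucine. Its intron reads, 2167 and 2396, gave a fold of 0.939 (0.885 to 0.995). Of them 798 and 850 were uniquely placed and gave 0.926 (0.840 to 1.02). This interval included 1 when scaled by unique gene reads, and its upper bound was close to 1.

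**Figure D2:**
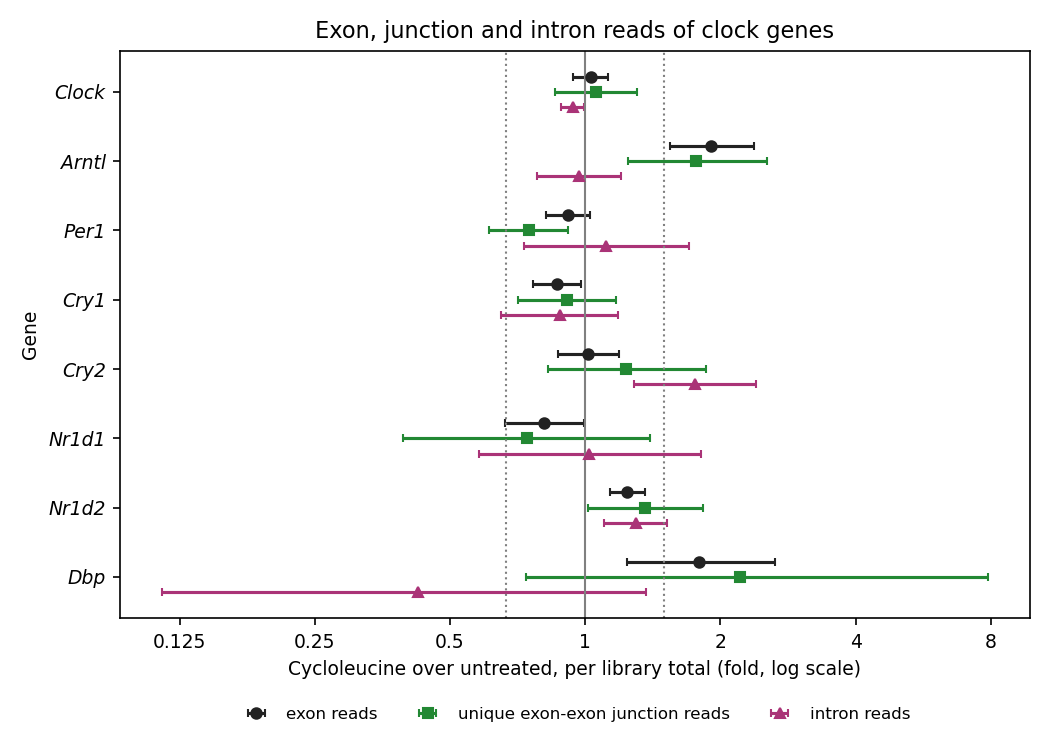
Fold of the cycloleucine over the untreated library on a log axis for exon, unique junction and intron reads of 8 clock genes, with bars for 95% exact binomial intervals and dotted lines at 1.5-fold in either direction. Exon and junction reads of Arntl lie near 1.8 to 1.9 with intron reads near 1, and in Cry2 the intron reads lie to the right of the exon reads.

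Among the Period genes only Per1, a repressor gene that also responds quickly to cyclic AMP signals, was measured. It lies on chromosome 11 from 69095217 to 69109960. Its exon reads were 610 and 658 and its RPKM 3.99 and 3.66, a fold of 0.916 (0.819 to 1.02). The exon interval included 1. Junction reads of Per1 were lower, at 211 and 186, a fold of 0.748 (0.611 to 0.916), and intron reads were few, at 42 and 55. Per2, a PER protein gene on chromosome 1 from 91415982 to 91459324, had 3 and 5 exon reads, a fold of 1.42 with an interval from 0.275 to 9.11. Nothing can be said of its direction at this depth.

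Per3 had 12 and 4 exon reads, an RPKM of 0.0460 and 0.0130 and a fold of 0.283 (0.0665 to 0.934). Its span on chromosome 4, from 151003652 to 151044665, lies wholly within that of Camta1. All 12 of its untreated exon reads crossed junctions, so its level rests on junction reads alone. The same held for every multi-exon feature nested in another feature's span with at least 10 unique exon reads in the untreated library. Of 275 features whose unique exon reads all crossed junctions 227 were nested in this way, against 0 of 10533 with unique reads inside an exon. The low level of Per3 therefore cannot be set beside that of Per1 or Per2, which are not nested. Camta1 itself was at 0.554 and 0.614 RPKM.

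The Cryptochrome genes, which encode the strongest repressors of CLOCK and BMAL1, gave different patterns across kinds of read. Cry1, on chromosome 10 from 85131702 to 85185054, had 523 and 533 exon reads and an RPKM of 6.40 and 5.53. Its fold was 0.865 (0.766 to 0.978), with intron reads at 0.877 (0.650 to 1.19). The intron interval included 1, and unique intron reads, 63 and 77, gave 1.06 (0.752 to 1.51), so the direction of the intron reads turned with the kind of read. Cry2, on chromosome 2 from 92403646 to 92434043, had 294 and 352 exon reads and an RPKM of 1.71 and 1.74, a fold of 1.02 (0.868 to 1.19).

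Intron reads and unique exon reads of Cry2 were higher with cycloleucine. Intron reads were 63 and 130, a fold of 1.75 (1.29 to 2.41), and the log2 change of the intron to exon ratio was 0.78 (0.28 to 1.30), above that of 98.3% of the genes compared. Of these intron reads 7 and 33 were uniquely placed. Unique exon reads of Cry2 were 157 and 230, a fold of 1.27 (1.04 to 1.57). Junction reads, 44 and 64, gave 1.235 (0.828 to 1.86), an interval that included 1. Only 53.4% of its exon reads were uniquely placed untreated and 65.3% with cycloleucine, the lowest shares of the 10 genes. The feature D930015M05Rik lies within the span of Cry2 and had 1 and 0 reads. Whether reads shared with other loci set the exon fold of Cry2 was not tested.

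The REV-ERB genes, whose products repress Arntl, differed in direction by all exon reads. For Nr1d1 that direction was not settled by unique reads. Nr1d2, on chromosome 14 from 18204054 to 18239127, had 847 and 1239 exon reads and an RPKM of 6.24 (5.83 to 6.68) against 7.75 (7.33 to 8.20). The cycloleucine library was the higher, by 1.24-fold (1.14 to 1.36), under the 1.5-fold rule. In contrast to Arntl, intron reads of Nr1d2 were higher as well, at 259 and 395, a fold of 1.29 (1.10 to 1.52), and the intron to exon ratio changed by 0.06 in log2. Junction reads, 77 and 123, gave 1.36 (1.01 to 1.83).

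Nr1d1, on chromosome 11 from 98767932 to 98775333, had 202 and 193 exon reads and an RPKM of 2.42 and 1.96. Its fold was 0.811 (0.663 to 0.993) from all exon reads and 0.927 (0.746 to 1.15) from unique ones, 165 and 176, and the interval from unique reads included 1. Its last bases overlap Thra, the thyroid hormone receptor alpha gene on the opposite strand, over 1075 bases. Strand use in counting was not stated in these sources, so reads of that stretch may belong to either gene. Thra was at 0.807 and 0.943 RPKM, a fold of 1.17 (0.898 to 1.53). By all exon reads, the level of Nr1d2 over Nr1d1 was 2.58 (2.21 to 3.02) without treatment and 3.95 (3.39 to 4.62) with cycloleucine. Of the Nr1d1 exon reads 81.7% were unique untreated and 91.2% with cycloleucine. The ratio was not computed from unique reads, so its shift is no more settled than the fold of Nr1d1.

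Dbp, which encodes a PAR bZIP factor that acts at D-boxes and is a direct target of CLOCK and BMAL1, was low. It lies on chromosome 7 from 45705088 to 45710155 and had 43 and 91 exon reads. The level was 0.538 RPKM (0.390 to 0.725) without and 0.967 RPKM (0.779 to 1.19) with cycloleucine, just under the filter of 1. The intervals did not overlap, and the fold was 1.80 (1.24 to 2.65), or 1.76 (1.20 to 2.61) from unique reads. Intron reads of Dbp were 10 and 5, too few to follow. Its 3' part overlaps the span of Sphk2, a sphingosine kinase gene, over 689 bases. Sphk2 had 428 and 521 exon reads and a fold of 1.03 (0.908 to 1.18).

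**Figure D3:**
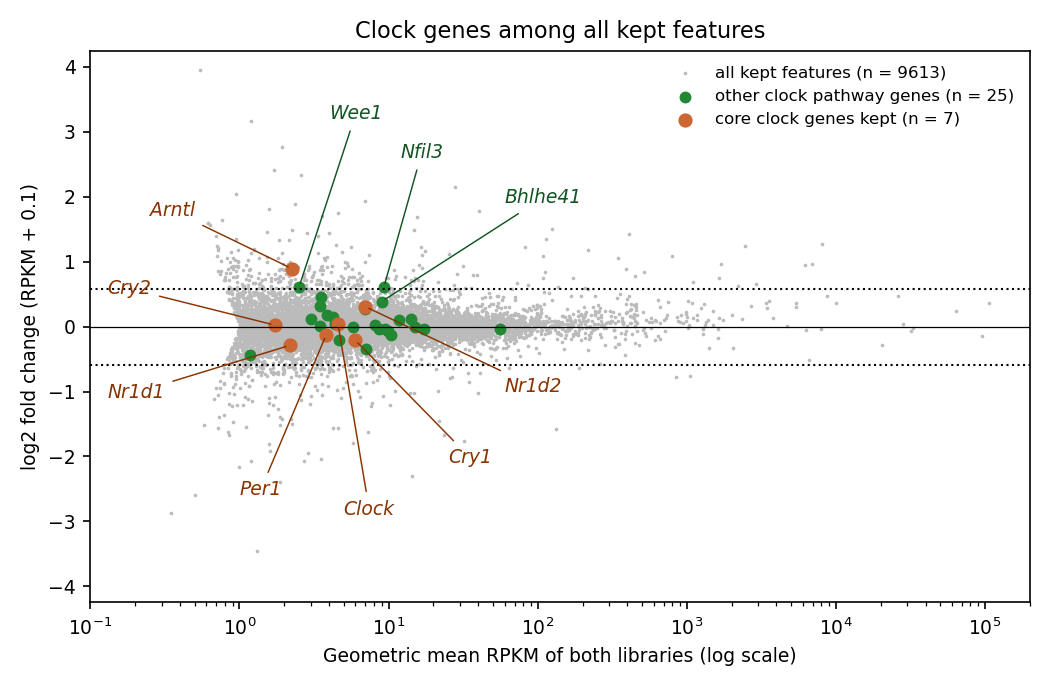
log2 fold change on the RPKM + 0.1 scale against the geometric mean RPKM of both libraries (log axis, with levels under 0.05 taken as 0.05) for all 9613 kept features in grey, 7 core clock genes in orange and 25 other clock pathway genes in green, with dotted lines at 1.5-fold. Arntl, Nfil3 and Wee1 lie above the upper line, and no core clock gene lies below the lower one.

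Other genes of the clock pathway were described from 34 genes in 7 lists, of which 25 were measured. Of these 2 were at least 1.5-fold higher (Nfil3 and Wee1) and 0 lower, beside the shares of 3.03% and 2.47% over all kept features. Their median log2 fold change was 0.02, with 14 above and 11 below 0. The wider pathway was thus centred where the whole table was.

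Factors that share D-boxes and ROREs with the core genes lay on the higher side. Nfil3, the D-box repressor, had 413 and 742 exon reads and an RPKM of 7.51 against 11.5, a fold of 1.53 (1.35 to 1.73). Its intron reads, 57 and 79, gave 1.18 (0.827 to 1.68), an interval that included both 1 and the exon fold. Tef, a D-box activator related to Dbp, was at 3.09 and 3.88 RPKM, a fold of 1.26 (1.14 to 1.39). The third member of that family, Hlf, had 22 and 39 reads, too low to measure. All 3 ROR receptor genes fell short of the filter, with Rorb the highest at 0.552 and 0.551 RPKM and Rora at 14 and 6 exon reads. The RNA of RORE activators was thus low in this line, while that of the RORE repressor Nr1d2 was among the highest of the clock genes. Junction reads of Rorb, 43 and 16, gave a fold of 0.316 (0.166 to 0.572), against 0.997 (0.807 to 1.23) from its exon reads.

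Bhlhe41 (DEC2), which represses at E-boxes, had 1334 and 2059 exon reads and an RPKM of 7.85 against 10.3, a fold of 1.31 (1.22 to 1.41). Its relative Bhlhe40 had 1 read in each library. Arntl2, the BMAL2 paralogue of Arntl, did not move with it, at 10.9 and 9.96 RPKM and a fold of 0.912 with a lower bound of 0.832. Per kilobase Arntl2 was 6.72 times (5.58 to 8.15) as high as Arntl without treatment and 3.21 times (2.81 to 3.67) with cycloleucine. Junction reads of Arntl2, 258 and 198, gave 0.652 (0.539 to 0.787). Npas2, a paralogue of Clock, had 34 and 20 exon reads, below the filter, and a fold of 0.499 (0.272 to 0.893). Timeless, best known for its role at replication forks, was the lower of the 2 measured genes of that list at 0.786-fold (0.726 to 0.850).

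The measured genes of enzymes that modify clock proteins all stayed within 1.5-fold by exon reads. Among casein kinase and GSK3 genes the highest was Gsk3b at 0.11 and the lowest Csnk1e at -0.20 in log2. Junction reads of Csnk1e went the other way, at 164 and 272, a fold of 1.41 (1.16 to 1.72) against 0.868 (0.789 to 0.954) from exon reads. Of ubiquitin ligases and proteases Btrc, which marks PER for decay, was lowest at -0.44. Btrc had 237 and 200 exon reads, a fold of 0.716 (0.591 to 0.869), and 1057 and 1239 intron reads. Of 9 cofactors Sirt1, a deacetylase reported to act on the clock, was highest with 434 and 704 reads, a fold of 1.38 (1.22 to 1.56). Its junction reads, 76 and 92, gave 1.03 (0.750 to 1.41). Hdac3, of the REV-ERB corepressor complex, was lowest at -0.07.

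Among output genes Wee1, a cell cycle kinase gene under E-box control in liver, had an RPKM of 2.01 and 3.13 from 106 and 194 reads, a fold of 1.55 (1.22 to 1.99). Like Per3 it is nested in another feature, 1600010M07Rik, and all 90 of its unique untreated reads crossed junctions. Nampt, of NAD synthesis, had the lowest log2 fold change of the list, -0.04.

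**Figure D4:**
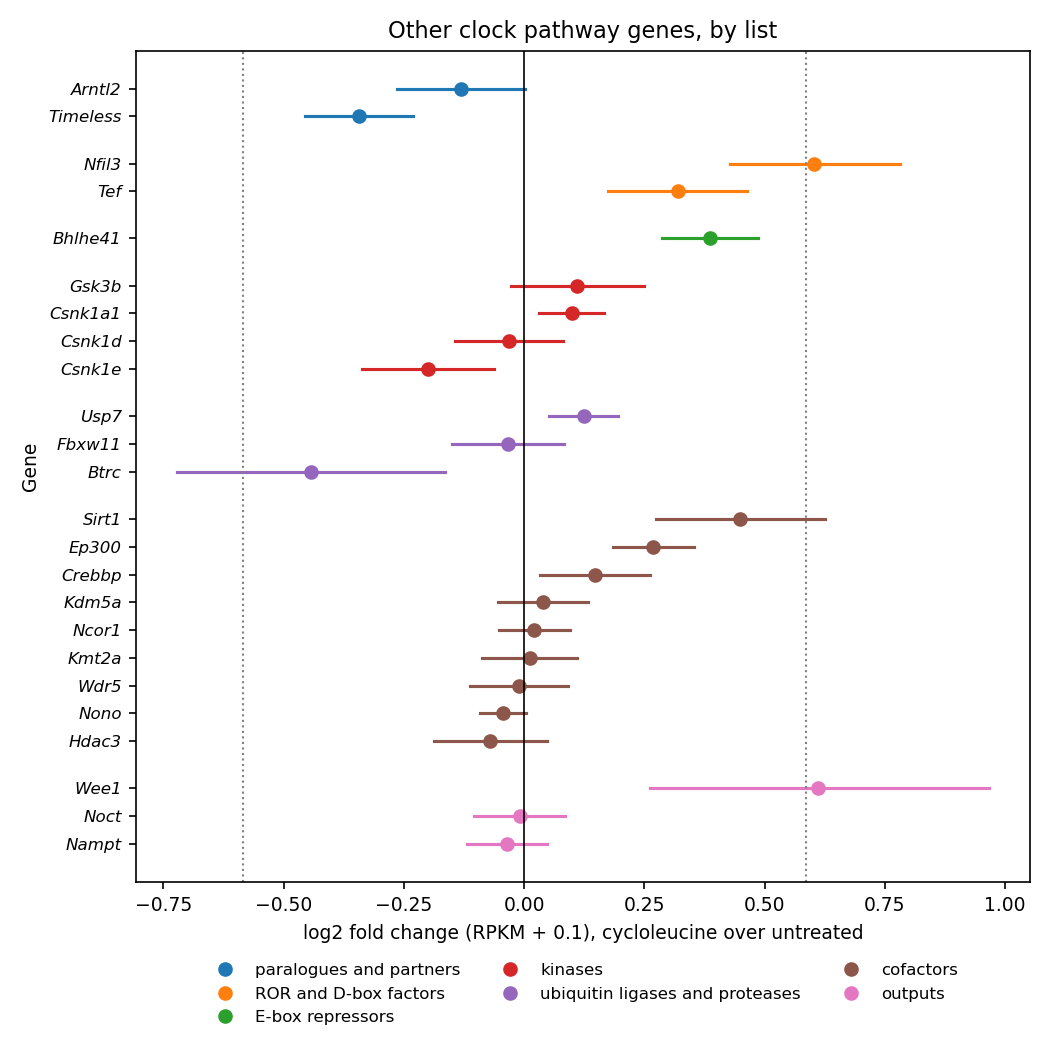
log2 fold change on the RPKM + 0.1 scale of measured genes of 7 clock pathway lists, 1 of them not shown, coloured by list, with bars for counting intervals centred on each value and dotted lines at 1.5-fold. Nfil3 and Wee1 lie past the upper line, and most kinases and cofactors lie within 0.3 of 0.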

How the data were processed

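Ion Proton reads were counted per gene by the authors. Per the file headers, the deposited counts cover genes, exons and introns, as total and as unique reads, and unique reads across exon junctions. RPKM values were computed by the authors. Turned back into reads by exon length and library total, these values matched the counts for 43346 of 43346 features in both libraries. The submitters' processing notes name mm10. Aligner, counter, annotation release and strand use were not given in the sources available. Starts in the deposited table count from 0 and are printed plus 1. Each group had 1 library, so the 2 libraries were compared by fold and counting interval, with no test. The pseudocount was 0.1 RPKM, and 0.5 was added to each count in intron to exon ratios. Calculations used Python 3.11.15, numpy 2.4.6, scipy 1.17.1 and pandas 2.3.3, and were tested on simulated data. Columns of other libraries numbered 0. Features counted as annotated had at least 1 transcript, and for others gene reads replaced exon reads, as in the RPKM. Without molecular identifiers, PCR copies of 1 molecule count more than once, which can make the intervals too narrow. A read count of 0 allows 3 counts, or 0.111 and 0.0939 RPKM for 1 kb of exon in the untreated and cycloleucine library.

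The members and lists were chosen with earlier results of these data known. Named were all 10 members, the highest and lowest of each other list, genes at least 1.5-fold different and genes overlapping a member. Bhlhe40, Npas2, Hlf, Rora, Rorb and 1600010M07Rik were named outside this rule, after their values were seen. Some items that the rule names are not reported here. Alternatives were another pseudocount, filter, threshold, scaling, unique reads and junction reads.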

Additional observations from a re-analysis of the deposited data

How the results depend on the processing

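No paired analysis was possible because there was 1 library per group. The count of 1 clock gene at least 1.5-fold higher was also 1 with unique reads and with a pseudocount of 1, 0 at 2-fold and 2 with no filter, which adds Dbp. The count of 0 lower was 0 under every alternative run. With no filter this rests on the scale: Per3 had a plain fold of 0.283 but a log2 fold change of -0.37 on RPKM + 0.1. Over all features the 291 higher and 237 lower were 70 and 64 at 2-fold, 2755 and 2581 with no filter, 347 and 204 with unique reads, 150 and 108 under a pseudocount of 1, 122 and 82 when 5 RPKM was required, and 132 and 94 among annotated features with at least 200 exon reads, an alternative chosen after seeing the data. More features enter with no filter and fewer with the stricter ones. Of 50 alternative exon values of the clock genes 4 left the counting interval of the main value. In log2, Cry2 was at 0.33 with unique and 0.30 with junction reads, and with junction reads Per1 was at -0.42 and Nr1d2 at 0.44. Of 19 intron values 1 did so, Cry2 at 2.04 from unique reads. This check leaves out the counting error of the alternative reads, whose own intervals overlapped those of the main values. It cannot show that the kinds of read differ, and the cause was not tested. Rescaling by a trimmed mean or a median of ratios shifted each value by 0.0044 or 0.0036 in log2. Per2, Per3, Dbp introns and the intron reads of Nr1d1 and Per1 were limited by depth.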
